A study of Caenorhabditis elegans with 2 samples.

Results

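The genes described here are the neuropeptide and insulin-like peptide genes of the nematode Caenorhabditis elegans, read in a chromatin immunoprecipitation sequencing (ChIP-seq) map of the zinc finger protein SOMI-1. They were taken from the Ensembl annotation of the WBcel235 assembly as protein-coding genes named flp, nlp or ins with a number, together with daf-28. This gave 141 of 19973 protein-coding genes, of which 31 were flp genes, 71 nlp genes and 39 ins genes with daf-28 counted among them. The choice used gene names only and no measured value.

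Neuropeptides are cut from longer precursors, loaded into dense core vesicles and released by neurons, and also by intestine and epidermis, to act on receptors of other cells. The flp genes encode FMRFamide-like peptides, the nlp genes a mixed group of neuropeptide-like proteins, and the ins genes and daf-28 encode insulin-like ligands of the receptor DAF-2. DAF-2 signalling holds the FOXO transcription factor DAF-16 in check and sets larval arrest, growth and lifespan.

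The animals were whole young adults of strain OP752, which carries the mutation unc-119(tm4063) and the transgene wgIs752. The transgene holds somi-1::TY1::EGFP::3xFLAG, in which SOMI-1 bears TY1, green fluorescent protein (GFP) and FLAG tags at its C terminus, and with it a working copy of unc-119(+). Hatchlings from bleached mothers had been synchronised by starvation in the first larval stage, and animals of both sexes were pooled and taken at 65.5 hours. An antibody to GFP was used to pull down the fusion protein from chromatin sonicated to 200 to 800 bp, in 2 biological replicates of 1 group, with no second condition. The labels do not say which cells carried the fusion protein or at what level, and in whole animals strong binding in a few cells and weak binding in many cells cannot be told apart.

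The authors deposited 4 peak lists. Their list from both replicates together, called the joint list here, held 26266 peaks with signals of 28.5 to 841. A thresholded list held the 1667 of these that passed an irreproducible discovery rate (IDR) threshold, and they were the strongest peaks of the joint list, with signals of 91.0 and above. The list of replicate 1 alone held 29600 peaks (signals 15.8 to 433), and that of replicate 2 alone held 26067 peaks (signals 16.4 to 410.1). The signal is the authors' own value per peak, without a stated unit, and signals are ranked against each other only within a list. Where the values of both replicates are printed, each belongs to its own list. A gene counted as reached when a peak summit fell in its window, which ran from 1000 bp before to 200 bp after any annotated 5′ end of its transcripts. Offsets below are from the nearest 5′ end of the gene, negative upstream. Replicate signals given for a joint summit are those of the strongest peak in that replicate's own list that covers the summit.

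The sequences at 8 summits are shown as examples: strong summits of insulin-like and nlp genes that lay outside protein-coding genes, the strongest flp summit outside them, and an flp summit inside a tRNA gene. They come from the RefSeq copy of WBcel235, on the strand of the peptide gene and 5′ to 3′, with the summit at base 51. The regions are chrX:1345002-1345102 (minus strand) for ins-39, chrV:11616024-11616124 (plus) for the stronger nlp-24 summit and chrV:11616254-11616354 (plus) for the weaker one. They are chrV:3979984-3980054 (plus) for nlp-31, which ends at the gene's 5′ end, chrV:19613255-19613355 (plus) for nlp-26 and chrV:3987785-3987885 (plus) for nlp-28. They are chrX:5885616-5885716 (plus) for flp-7 and chrIII:8650364-8650464 (plus) for flp-23. Capitals mark 4 short words searched on either strand, namely GACGCA and the palindrome CACGTG, the repeat GAGAGA and the GATA-type word GATAAG. In flp-23 capitals mark the tRNA gene.
ins-39: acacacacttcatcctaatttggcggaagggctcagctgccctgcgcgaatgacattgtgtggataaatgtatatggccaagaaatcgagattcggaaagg
nlp-24, stronger summit: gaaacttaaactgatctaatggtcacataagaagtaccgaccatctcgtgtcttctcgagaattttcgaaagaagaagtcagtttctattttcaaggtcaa
nlp-24, weaker summit: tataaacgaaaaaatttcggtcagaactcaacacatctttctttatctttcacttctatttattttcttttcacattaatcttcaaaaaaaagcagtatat
nlp-31: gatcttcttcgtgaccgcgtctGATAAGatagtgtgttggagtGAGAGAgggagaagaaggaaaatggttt
nlp-26: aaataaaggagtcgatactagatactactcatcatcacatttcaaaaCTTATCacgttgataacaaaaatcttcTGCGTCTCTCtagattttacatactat
nlp-28: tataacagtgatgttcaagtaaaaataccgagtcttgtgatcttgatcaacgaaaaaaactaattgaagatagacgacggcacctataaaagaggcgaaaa
flp-7: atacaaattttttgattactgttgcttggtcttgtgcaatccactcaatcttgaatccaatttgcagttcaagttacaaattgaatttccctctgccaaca
flp-23: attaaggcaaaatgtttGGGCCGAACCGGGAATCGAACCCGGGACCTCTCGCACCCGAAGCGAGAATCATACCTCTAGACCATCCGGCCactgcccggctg

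The bases shown at the ins-39 summit were 47.5% G and C and held none of the 4 words, and neither did those at both nlp-24 summits, at nlp-28 or at flp-7. The weaker nlp-24 summit lay in a pyrimidine-rich stretch with 24.8% G and C. At nlp-31 the bases before the 5′ end held GATAAG and GAGAGA. At nlp-26 the reverse complement of GATAAG stood near the summit, and those of GACGCA and of GAGAGA stood farther down and overlapped by 2 bases. At flp-23 the summit itself lay inside the 72-bp tRNA gene WBGene00023002.

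Thresholded peaks reached 3 of the 141 peptide genes, ins-39, nlp-24 and nlp-76. This was 2.13% of them (Wilson 95% interval 0.726 to 6.07), against 4.34% of all protein-coding genes, the peptide genes included. The joint list reached 54 peptide genes (38.3%, 30.7 to 46.5), against 35.0% of all genes. Most of the peaks at peptide genes thus stood below the authors' threshold. The share of all genes lay within the Wilson interval of the peptide genes for both lists, and these intervals cover counting error only.

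The lists of single replicates gave like shares. Replicate 1 had a summit at 49 peptide genes (34.8%, 27.4 to 42.9), against 37.9% of all genes. Replicate 2 had one at 42 peptide genes (29.8%, 22.9 to 37.8), against 34.9% of all genes. Both replicates had one at 23 peptide genes (16.3%, 11.1 to 23.3), against 22.8% of all genes. A joint summit inside a peak of each replicate stood in the windows of 21 peptide genes (14.9%, 9.95 to 21.7), against 18.9% of all genes.

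Of the peptide genes reached in replicate 1, 46.9% were reached in replicate 2, against 60.2% over all genes. Of those reached in replicate 2, 54.8% were reached in replicate 1, against 65.3% over all genes. In none of the joint and single-replicate lists did a summit lie in the window of 70 peptide genes (49.6%), against 48.8% of all genes. All 3 of these lists had a summit at 21 peptide genes (14.9%), against 21.4% of all genes.

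**Figure D1:**
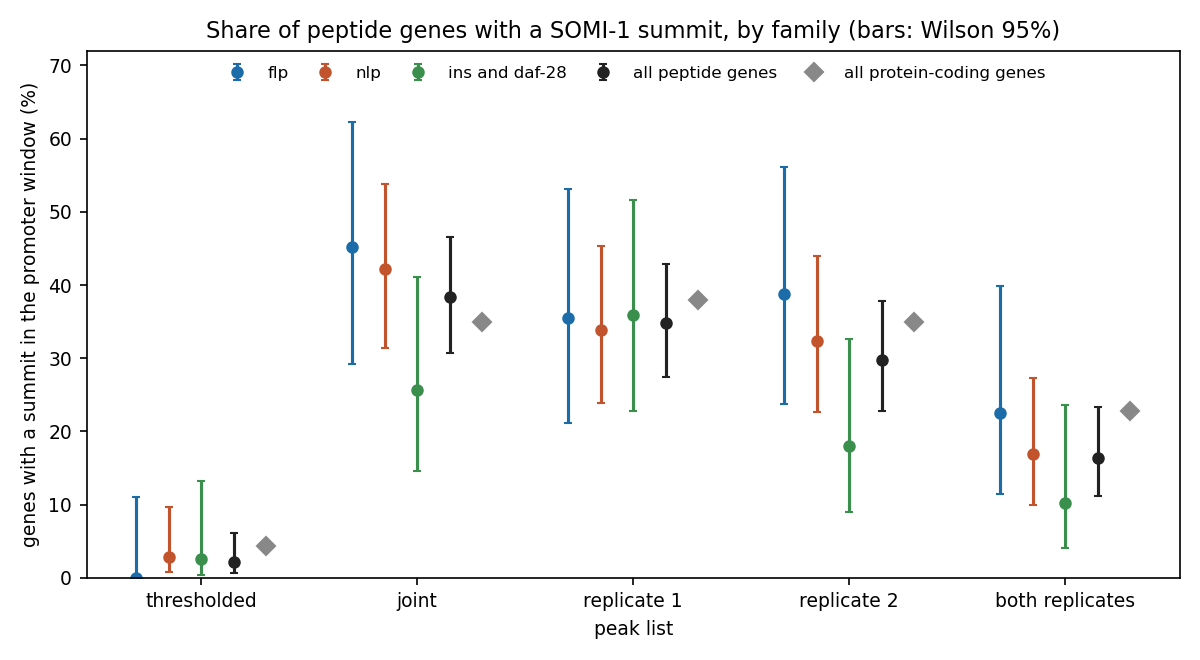
Percent of genes with a summit in the promoter window (vertical axis) in the thresholded, joint and single-replicate lists and in both replicates, for the flp, nlp and ins families and all 141 peptide genes, with grey diamonds for all 19973 protein-coding genes. Bars are Wilson 95% intervals. The thresholded shares stand between 0 and 2.82%, below the 4.34% of all genes, and the ins share in replicate 2 is the only one whose interval ends below the diamond.

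By family, the intervals overlapped at each strength of peak. No flp gene was reached by a thresholded peak (0 of 31, Wilson upper bound 11.03%) and none by the 5000 strongest joint peaks, which reached 10.6% of all genes. The whole joint list reached 14 flp genes (45.2%, 29.2 to 62.2), against 35.0% of all genes. Of the nlp genes, thresholded peaks reached 2 of 71 (2.82%, 0.776 to 9.70), the 5000 strongest peaks 9 (12.7%, 6.81 to 22.4) and the joint list 30 (42.3%, 31.5 to 53.8). Of the ins genes with daf-28, thresholded peaks reached 1 of 39 (2.56%, 0.454 to 13.2), the 5000 strongest peaks 2 (5.13%, 1.42 to 16.9) and the joint list 10 (25.6%, 14.6 to 41.1).

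Replicate 1 reached 11 flp genes (35.5%), 24 nlp genes (33.8%) and 14 ins genes (35.9%), against 37.9% of all genes. Replicate 2 reached 12 flp genes (38.7%), 23 nlp genes (32.4%) and 7 ins genes (17.9%, 8.98 to 32.7), against 34.9% of all genes. The ins count thus differed by 7 between the replicates, while the flp and nlp counts differed by 1 each. The ins share in replicate 2 was 1 of 32 shares, over the 3 families, their total and 8 ways of counting, whose interval did not hold the share of all genes. Both replicates reached 7 flp genes (22.6%, 11.4 to 39.8), 12 nlp genes (16.9%, 9.94 to 27.3) and 4 ins genes (10.3%, 4.06 to 23.6), against 22.8% of all genes.

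As weaker joint peaks were added, the share of peptide genes reached followed that of all genes. It was 11 of 141 (7.80%, 4.41 to 13.4) with the 5000 strongest peaks, against 10.6% of all genes, and 22 (15.6%, 10.5 to 22.5) with the 10000 strongest, against 17.4% of all genes. At 20000 peaks it was 28.4%, against 28.9%. The flp genes entered between the 5000th and the last peak: 6 were reached by 10000 peaks and 12 by 20000. The ins genes stood at 5 of 39 from 14000 to 21000 peaks.

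**Figure D2:**
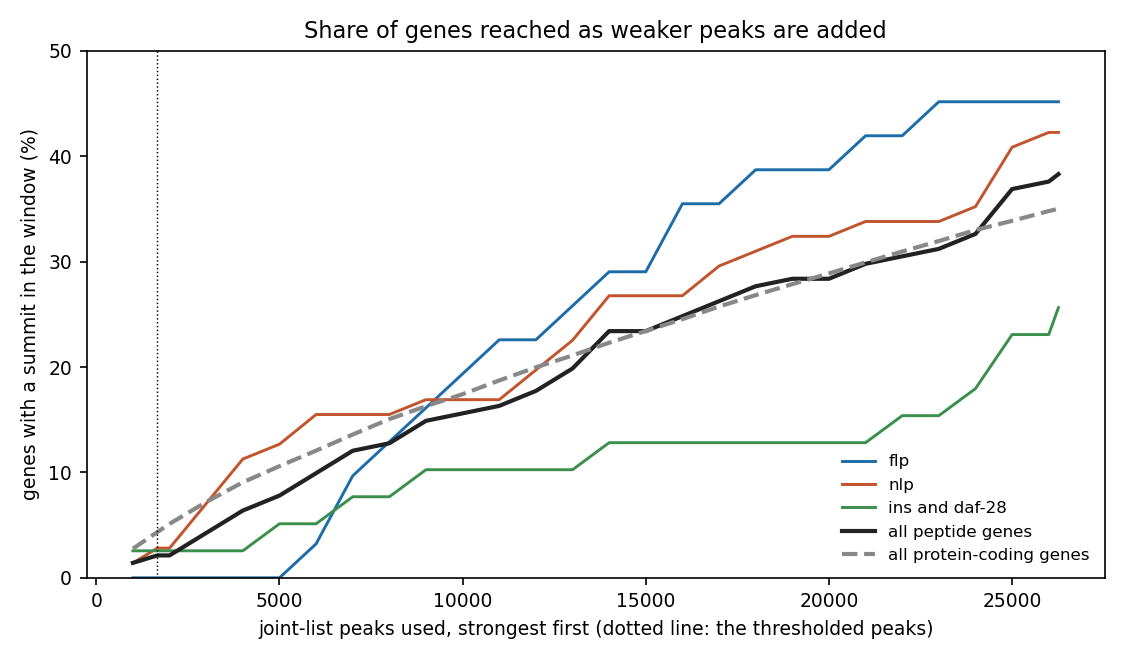
Percent of genes with a summit in the window (vertical axis) against the number of joint peaks used, strongest first (horizontal axis). Lines stand for the flp, nlp and ins families, for all peptide genes and, dashed, for all protein-coding genes, and the dotted vertical line marks the 1667 thresholded peaks. The flp line stays at 0 up to 5000 peaks and ends at 45.2%, the ins line ends at 25.6%, and the line of all peptide genes ends at 38.3%, beside 35.0% for all protein-coding genes.

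The strongest peak at a peptide gene belonged to ins-39 (WBGene00017668, chromosome X, 1343758 to 1344421, minus strand), an insulin-like gene. The peak ran from 1344842 to 1345261 on ce11, with the summit at 1345052, outside protein-coding genes and 631 bp before the 5′ end. Its signal was 221 in the joint list, rank 197, and the replicates' own signals were 116 and 106. These stood at rank 174 in replicate 1 and rank 248 in replicate 2. A second joint summit, with a signal of 49.6, lay 830 bp upstream within the same replicate peaks.

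The gene nlp-24 (WBGene00003762, chromosome V, 11616376 to 11616828, plus strand) has been described as encoding opioid-like peptides. Its thresholded peak ran from 11615864 to 11616283 with the summit at 11616074, 302 bp upstream, a joint signal of 149.8 and rank 538. The replicates' signals there were 86.3 and 66.7. A second joint summit stood 72 bp upstream with a signal of 76.2 and rank 2439. A further thresholded peak lay outside the window, 1321 bp upstream, with a signal of 128.9 and replicate signals of 51.6 and 78.2, so that nlp-24 had a pair of thresholded peaks before its 5′ end.

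The gene nlp-76 (WBGene00045386, chromosome X, 12662478 to 12663903, minus strand) had its thresholded summit at 12663824, 79 bp downstream of the 5′ end in its own 5′ UTR. The joint signal was 111, rank 1076, and the replicates' signals were 58.9 and 63.2. A pair of overlapping thresholded peaks stood farther upstream, at 1292 bp (signal 157) and 1496 bp (139), inside the neighbouring gene nhr-17 and within 500 bp of 1 tRNA gene. The gene nlp-76 was the only peptide gene with a thresholded summit inside the gene itself (0.709%), against 2.33% of all genes. Joint summits lay inside 48 peptide genes (34.04%), against 43.0% of all genes, and the median gene length was 903 bp for peptide genes and 2027 bp for all genes.

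At 6 further peptide genes a thresholded summit lay within 2000 bp of the 5′ end but outside the window. Upstream there was 1, at nlp-26, 1407 bp before the 5′ end with a signal of 93.6, inside grsp-1. The other 5 lay downstream of the 5′ end and past the end of the gene. At nlp-4 the summit lay 850 bp downstream with a signal of 260.0, in the window of F59C6.18. At ins-13 it lay 1151 bp downstream (276) and at ins-37 it lay 1568 bp downstream (184), in the window of F08G2.5. At nlp-40, which encodes an intestinal peptide that drives the defecation rhythm, it lay 1922 bp downstream (192). At ins-17 it lay 1938 bp downstream (287), in the windows of ifet-1 and rps-1.

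**Figure D3:**
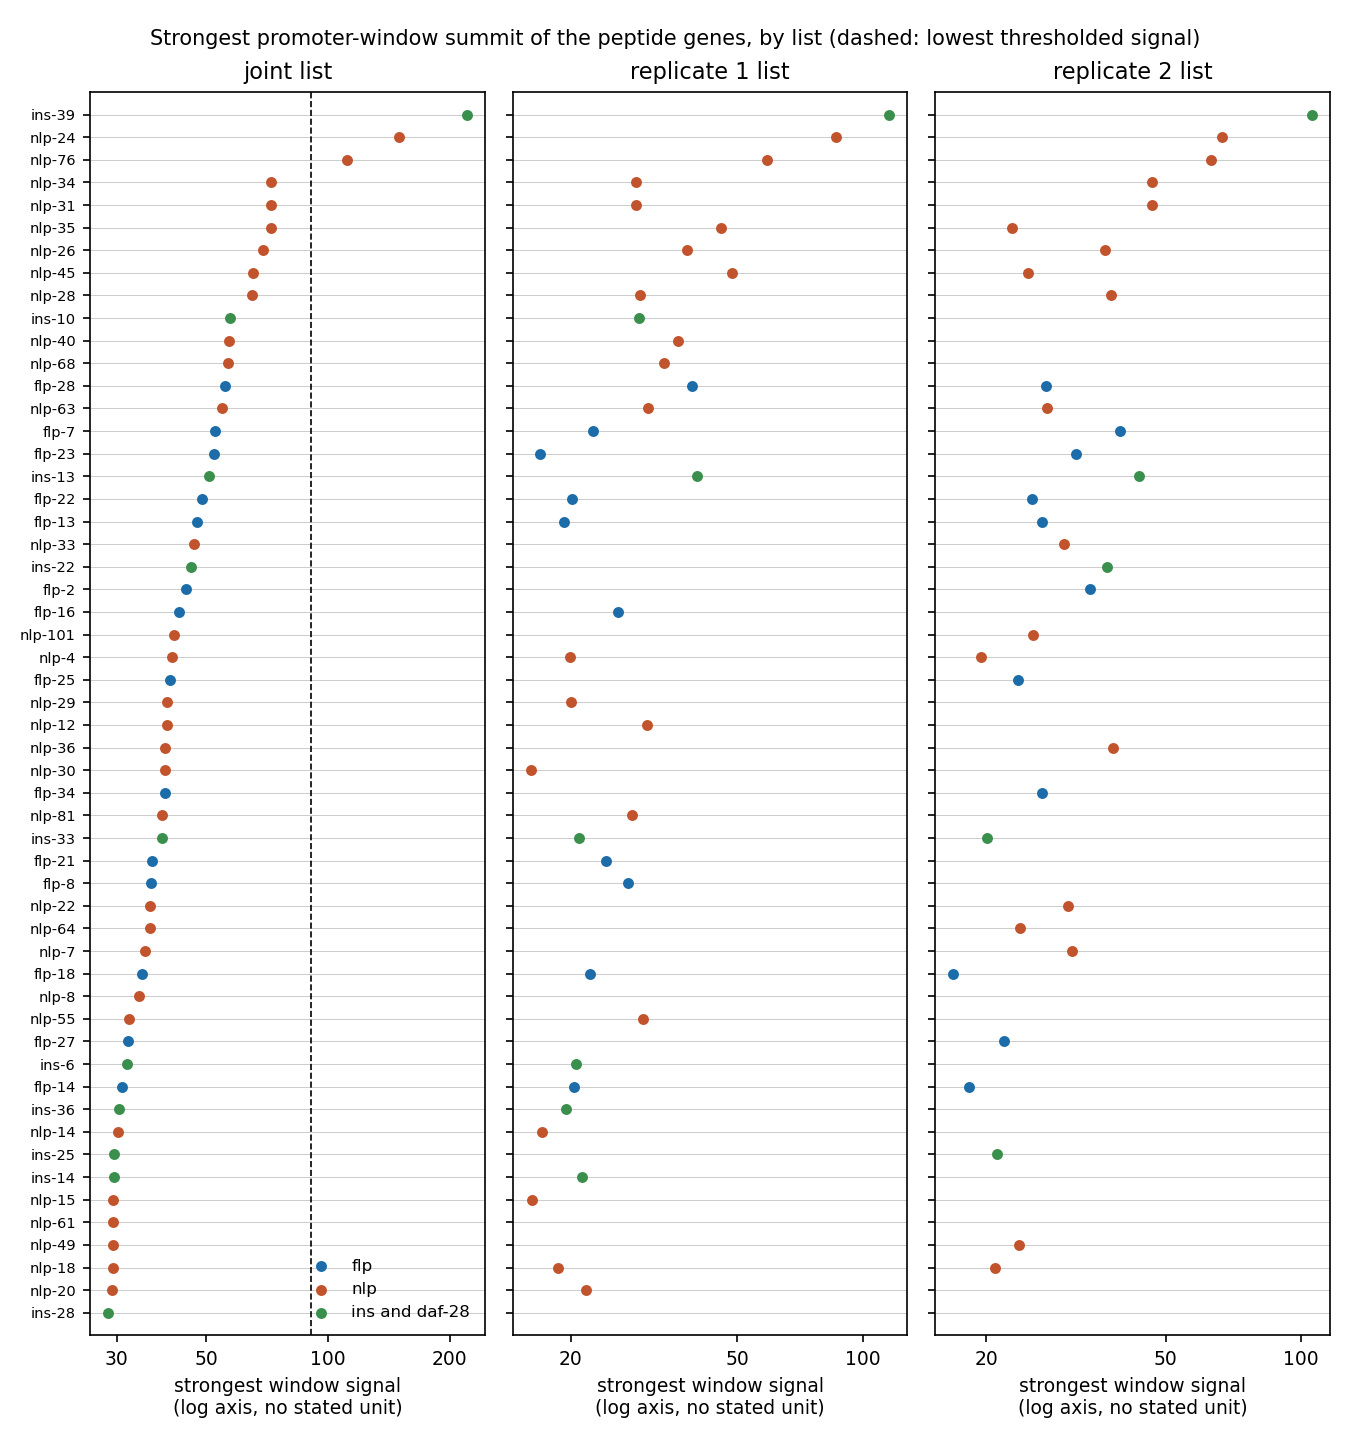
Signal of the strongest window summit of each of the 54 peptide genes with a joint summit, in the joint list and in each replicate's own list (horizontal axes, log scale, no stated unit), ordered by the joint signal and coloured by family. A missing point means no summit of that list in the window, and the dashed line is the lowest thresholded signal, 91.0. Points right of the line belong to ins-39, nlp-24 and nlp-76, and no flp gene exceeds 55.8 in the joint list.

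Below the threshold, the next genes were nlp-31 and nlp-34, which share a summit, nlp-35, nlp-26 and nlp-45, with joint signals of 72.4, 72.4, 72.2, 69.1 and 65.1. The last thresholded peak had a signal of 91.0 at rank 1667, and the first below it also rounded to 91.0, at rank 1668. The strongest window signals of the 54 genes ran from 28.6 to 221 with a median of 39.99, against a median of 43.7 over the 6991 genes reached in all. Of the 54, 45 stood under 60 and 27 under 40. Beyond ins-39, nlp-24 and nlp-76, no peptide gene had a window signal above 72.4.

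Among the nlp genes, nlp-31 and nlp-29 encode peptides induced in the epidermis by fungal infection. The summit shared by nlp-31 and nlp-34 lay 21 bp upstream of nlp-31 and 900 bp upstream of the divergent nlp-34, with replicate signals of 28.6 and 46.6. At nlp-28 the summit lay 65 bp upstream with a joint signal of 64.9 and replicate signals of 29.3 and 37.7. At nlp-29 it lay 154 bp downstream, in an intron of the gene, with a joint signal of 40.01 and replicate signals of 20.04 and 20.3. At nlp-26 it lay 156 bp upstream with replicate signals of 37.9 and 36.7.

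The 6 genes nlp-34, nlp-31, nlp-30, nlp-29, nlp-28 and nlp-27 stand together in 10946 bp of chromosome V (3978825 to 3989770), with 0 other protein-coding genes between them. The joint list held 8 summits in this span, replicate 1 held 10 and replicate 2 held 5, and 0 were thresholded. A joint summit stood in the windows of 5 of the 6 genes, with nlp-27 left out, a replicate 1 summit at 5 and a replicate 2 summit at 4. Over all genes on V these shares were 30.5%, 33.9% and 30.1%. In these counts the summit shared by nlp-31 and nlp-34 enters for each gene. All 6 genes belong to the nlp-24 to nlp-34 set described below, which was picked out after its values were seen. The strongest joint summits, at nlp-31 (72.4) and nlp-28 (64.9), lay just before 5′ ends, and the next, with a signal of 50.9, lay inside nlp-27 but past its window. In replicate 1 the strongest summits lay inside nlp-31, 272 bp past its 5′ end (34.7), and inside nlp-27 (32.0). They stood above those at the 5′ end of nlp-28 (29.3) and before nlp-31 (28.6).

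**Figure D4:**
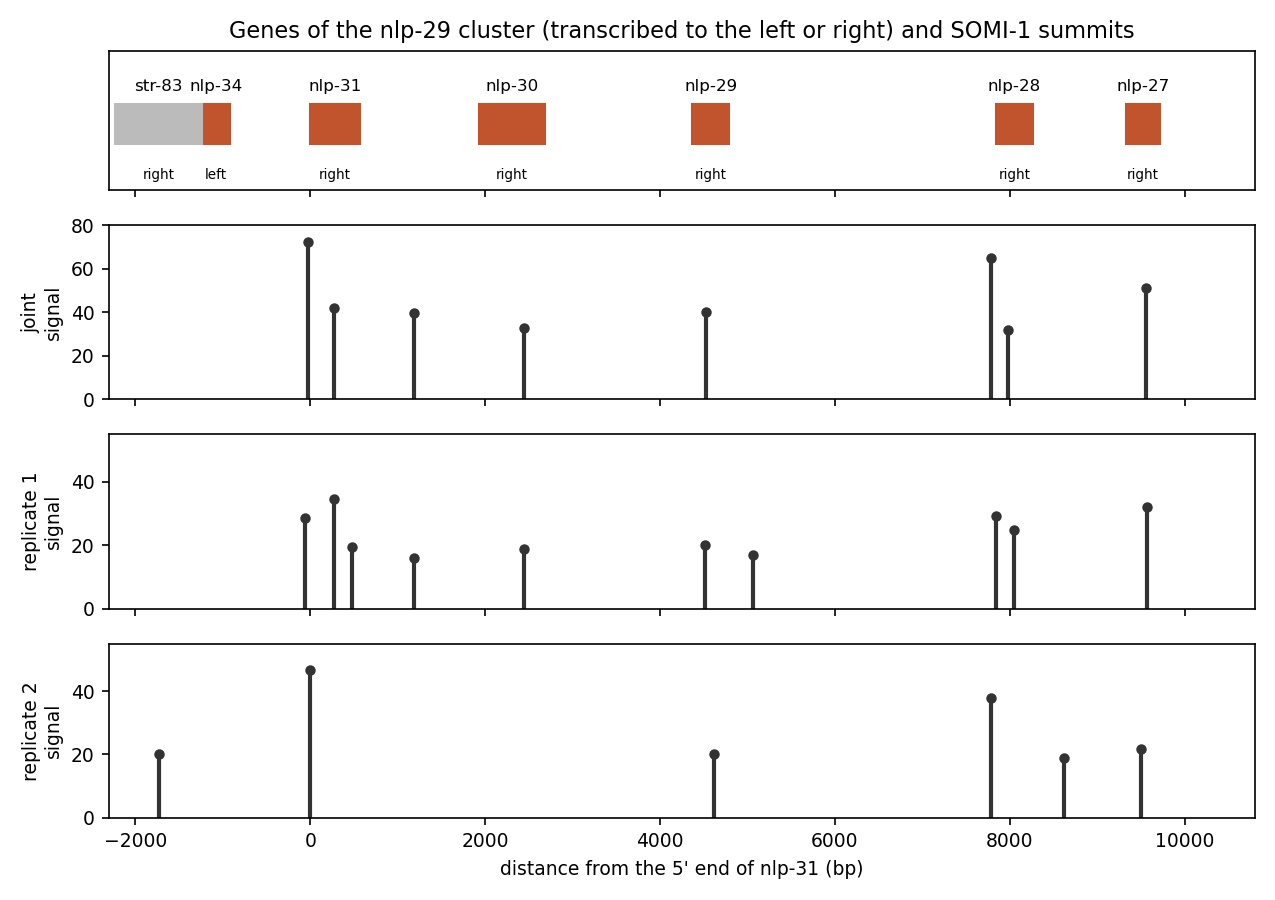
Summits in the nlp-29 gene cluster (vertical lines with points, signal on the vertical axes without a stated unit) in the joint list and in each replicate, against the distance from the 5′ end of nlp-31 in bp. Boxes show the 6 nlp genes in orange and part of the neighbour str-83 in grey, with the direction of transcription below. The summits near 0 and near 7780 bp, before nlp-31 and nlp-28, are the highest of the joint list there (72.4 and 64.9) and appear in both replicates. In replicate 1 the highest summits stand inside nlp-31 and nlp-27 (34.7 and 32.0).

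The 11 genes nlp-24 to nlp-34, a set picked out after its values were seen and so given without a test, held 5 of the 9 nlp genes reached by the 5000 strongest peaks. A joint summit stood at 8 of the 11 (72.7%, 43.4 to 90.3) and at 22 of the other 60 nlp genes (36.7%, 25.6 to 49.3). The share of all genes was 35.0%, close to that of the other 60. Both replicates reached 5 of the 11 (45.5%) and 7 of the other 60 (11.7%), against 22.8% of all genes. Taking out the 11 lowers the shares of the other 60, which were 42.3% and 16.9% over all 71 nlp genes. The median of the strongest joint signals was 67.0 in the 11 genes and 37.6 in the other 60, against 43.7 over all genes reached. Genes that share a summit, such as nlp-31 and nlp-34, are not independent in these counts.

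Among the 15 peptide genes with the strongest joint signal were 5 further nlp genes. At nlp-35 the summit lay 124 bp downstream in a coding exon of the gene, 288 bp from the piRNA gene 21ur-6290, with a joint signal of 72.2 and replicate signals of 45.7 and 22.8. At nlp-45 it lay 367 bp upstream, inside the gene T01B6.1, with a joint signal of 65.1 and replicate signals of 48.7 and 24.7. At nlp-40 it lay 210 bp upstream (joint signal 56.8), and replicate 1 (36.2) but not replicate 2 had a peak there. The summit of nlp-68 lay 905 bp upstream (56.6, replicates 33.5 and 24.4) and that of nlp-63 lay 923 bp upstream (54.7, replicates 30.7 and 27.3). Both replicates thus covered 4 of these 5 summits.

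Of 8 nlp genes chosen for their known roles, 7 had a joint summit, against 35.0% of all genes. The genes were picked by hand, and nlp-24 and nlp-29 belong to the nlp-24 to nlp-34 set. The summits of nlp-24, nlp-29 and nlp-40 are given above. At nlp-12, a cholecystokinin-like gene of the stretch-sensing neuron DVA, the joint summit lay 392 bp upstream with a signal of 39.97, and replicate 1 alone had a peak there (30.5). At nlp-22, a sleep-promoting gene, it lay 97 bp downstream in a coding exon (36.2), with a peak in replicate 2 alone (30.3). At nlp-8, also linked to sleep, it lay 890 bp upstream (34.2) with a peak in neither replicate. At nlp-49 it lay 613 bp upstream (29.3, replicate 2 alone at 23.7), 398 bp from the non-coding gene H05L03.7. The window of nlp-3, which acts in egg laying, held no summit in any list, and its nearest thresholded summit was 14027 bp away.

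A pair of weak nlp summits stood at other non-coding genes. The summit of nlp-18, 45 bp downstream of the 5′ end with a signal of 29.3, lay 279 bp from F33A8.12, and that of nlp-55, 878 bp upstream with a signal of 32.2, lay inside F14F11.4. Both replicates covered the nlp-18 summit, at 18.6 and 20.9, while replicate 1 alone covered that of nlp-55, at 29.8. With flp-23, nlp-35 and nlp-49 these were the peptide genes with a window summit within 500 bp of a non-coding gene, and the part of those genes in the signals was not tested.

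The strongest flp summit lay 392 bp upstream of flp-28, inside the gene W07E11.1, with a joint signal of 55.8 and replicate signals of 38.95 and 27.1. A second joint summit of flp-28 lay 594 bp upstream with a signal of 53.1, within the same replicate peaks. At flp-7 the summit lay 199 bp upstream (52.6), and replicate 2 (39.5) but not replicate 1 had a peak there. Replicate 1 had its own summit in the flp-7 window past the 5′ end, at 22.7. At flp-23 the summit inside the tRNA gene lay 353 bp upstream (52.3, replicates 16.9 and 31.7). Both replicates thus covered the summits of flp-28 and flp-23 but not that of flp-7.

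Among flp genes of known function, flp-13, which acts from the neuron ALA in stress-induced sleep, had a joint summit 31 bp upstream of its 5′ end. Its signal was 47.4, and the replicates' signals were 19.3 and 26.5. The ligands of the receptor NPR-1, flp-18 and flp-21, had joint signals of 34.6 (276 bp upstream, in an intron of flp-18) and 36.7 (893 bp upstream), each covered by a replicate 1 peak alone, at 22.2 and 24.3. At flp-8 the joint signal was 36.6 (825 bp upstream), covered by replicate 1 at 17.9, and at flp-14 it was 30.9 (718 bp upstream), covered by replicate 2 at 18.3. No list had a summit in the windows of flp-1, a locomotion gene of the AVK neurons, or flp-11, the sleep gene of the neuron RIS. Their nearest thresholded summits were 53644 bp and 33973 bp away.

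Of 8 insulin-like genes chosen for their known roles, 2 had a joint summit, against 35.0% of all genes. No list had a summit at 5 of them, which was also the case for 48.8% of all genes. No list had one in the windows of daf-28 and ins-4, which encode agonists of DAF-2, of ins-1 and ins-18, which encode antagonists, or of ins-3. The nearest thresholded summit was 171927 bp from daf-28, 151347 bp from ins-4, 33377 bp from ins-1, 11785 bp from ins-18 and 145749 bp from ins-3. For ins-7, an agonist, replicate 1 alone had a summit, at an offset of -503 bp with a signal of 16.2, near the lowest value of that list. For ins-6, another agonist, the joint signal was 31.8 (421 bp upstream), covered by replicate 1 alone at 20.6.

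Higher signals among insulin-like genes, after ins-39, stood at ins-10 and ins-13. The ins-10 summit lay 193 bp downstream of the 5′ end in a coding exon (57.1) and was covered by both replicates, at 29.2 and 32.9. The ins-13 summit lay 676 bp upstream inside another protein-coding gene (50.9), covered by replicate 2 alone at 43.7, while replicate 1 had its strongest ins-13 summit at an offset of -46 bp, with a signal of 40.1. At ins-33, which is expressed in larvae, the summit lay 356 bp upstream (38.8) and was covered by both replicates, at 20.98 and 20.1.

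Many insulin-like genes stand in clusters. The 6 genes ins-2, ins-3, ins-4, ins-5, ins-6 and ins-20 lie in 22798 bp of chromosome II (5988524 to 6011321), and a joint summit stood at 1 of them, ins-6, a replicate 1 summit at 1 and a replicate 2 summit at 0. The cluster of ins-28, ins-29, ins-25, ins-27, ins-24, ins-30 and ins-26 spans 25409 bp of chromosome I, with a joint summit at 2 of the 7 genes. At ins-13, ins-12 and ins-11 on chromosome II, replicate 2 had a summit at all 3, replicate 1 at 2 and the joint list at 1. None of these 3 clusters held a thresholded summit. Over all genes on I the joint list reached 34.8% and thresholded peaks 4.69%. Over all genes on II the joint list reached 32.9%, replicate 1 36.0%, replicate 2 32.7% and thresholded peaks 3.65%.

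The windows of the peptide genes held 64 distinct joint summits, of which 3 were thresholded (4.69%) and 26 (40.6%) were covered by both replicates. Over all genes there were 8251 such summits, 9.10% of them thresholded and 49.1% covered by both replicates. The median signal was 39.5 at peptide genes and 41.2 over all genes. Of the 64, 51 (79.7%) lay upstream of the 5′ end, against 77.3%, and 30 (46.9%) lay within 300 bp of it, against 56.2%. The median distance was 325.5 bp, against 239 bp over all genes. By place, 40 lay outside protein-coding genes, 9 inside another gene, 7 in a coding exon of the peptide gene, 6 in its introns and 2 in its 5′ UTR.

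The flp summits lay farthest out: 15 of 16 (93.8%) were upstream, at a median distance of 610.5 bp from the 5′ end, and 4 (25.0%) lay within 300 bp. The 36 nlp summits had a median distance of 262 bp, with 21 (58.3%) within 300 bp. The 12 ins summits had a median distance of 388.5 bp. Median signals were 41.8 for flp, 39.4 for nlp and 35.3 for ins summits.

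**Figure D5:**
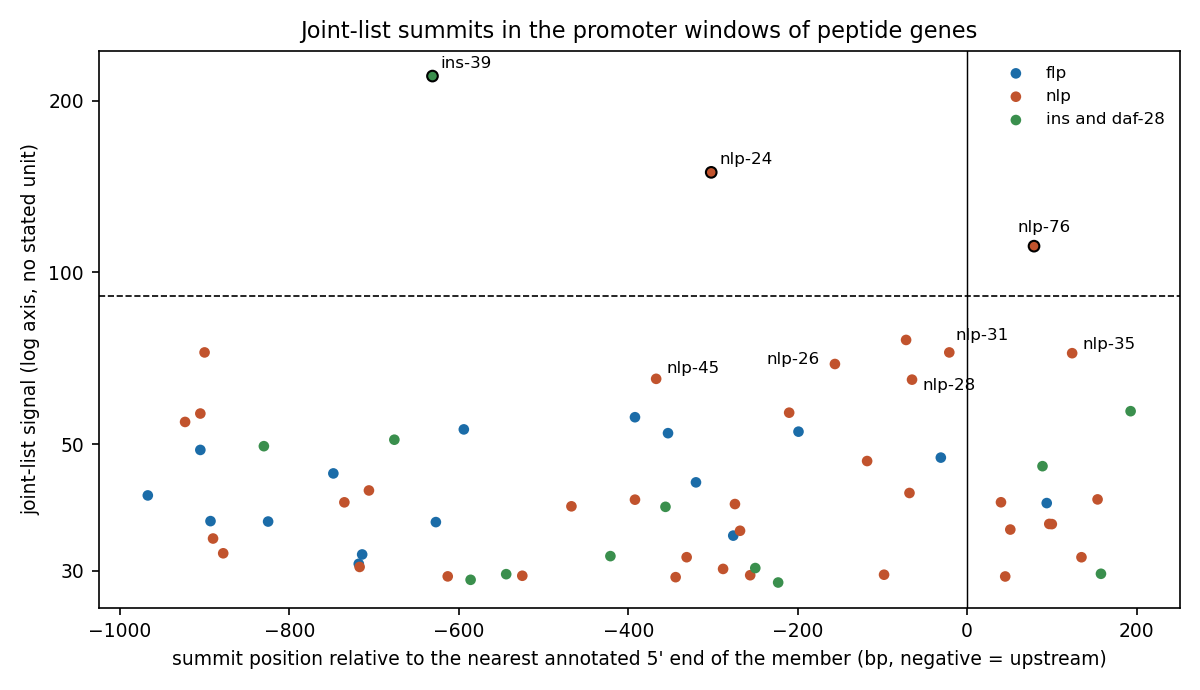
Joint signal (vertical axis, log scale, no stated unit) against the position of the summit relative to the 5′ end (horizontal axis, in bp, negative upstream) for the joint summits in the windows of peptide genes, coloured by family; the summit shared by nlp-31 and nlp-34 is drawn for each gene. Black rims mark the thresholded summits of ins-39, nlp-24 and nlp-76, and the dashed line is the lowest thresholded signal, 91.0. Blue flp points lie mostly upstream, 15 of 16 of them, and stay at or below 55.8.

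Across the 26 summits at peptide genes covered by both replicates, the replicates' signals had a Spearman correlation of 0.589 and a Pearson correlation of 0.80 on the log2 scale. Across the 4053 such summits of all genes these were 0.586 and 0.72. The points share a control alignment, and some overlapping joint summits share a replicate peak, so they are given as a description. The 23 peptide genes with a summit of each replicate in the window, not always at the same place, were flp-7, flp-13, flp-14, flp-18, flp-22, flp-23 and flp-28, nlp-4, nlp-18, nlp-24, nlp-26, nlp-28, nlp-31, nlp-34, nlp-35, nlp-45, nlp-63, nlp-67 and nlp-76, and ins-11, ins-13, ins-33 and ins-39. Of these, nlp-67 and ins-11 had no joint summit in the window, and nlp-8, nlp-61 and ins-28 had one in the joint list alone. The summits of replicates 1 and 2 lay apart, for example, at flp-14 (offsets of 50 and -667 bp) and flp-18 (-474 and -979 bp). At flp-25, nlp-29, nlp-68 and ins-10 both replicates covered a joint summit, but not both had a summit of their own in the window.

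The peptide genes are not spread evenly over the chromosomes: 34 of the 141 (24.1%) lie on X, against 13.7% of all genes, and 13 of the 31 flp genes do (41.9%). On X, thresholded peaks reached 2 of 34 peptide genes (5.88%, 1.63 to 19.1), against 5.71% of all X genes, and the joint list reached 15 (44.1%, 28.9 to 60.5), against 42.7%. On the autosomes, thresholded peaks reached 1 of 107 peptide genes (0.935%, 0.165 to 5.10), against 4.12% of all autosomal genes, and the joint list reached 39 (36.4%, 27.9 to 45.9), against 33.8%.

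By autosome, the joint list reached 10 of 19 peptide genes on chromosome I (52.6%, 31.7 to 72.7), against 34.8% of all genes there, and 8 of 28 on II (28.6%, 15.3 to 47.1), against 32.9%. It reached 6 of 17 on III (35.3%, 17.3 to 58.7), against 39.2%, and 4 of 19 on IV (21.1%, 8.51 to 43.3), against 34.4%. It reached 11 of 24 on V (45.8%, 27.9 to 64.9), against 30.5%, and the 1 autosomal gene with a thresholded peak, nlp-24, lies there. On V the 5000 strongest peaks reached 6 of 24 peptide genes (25.0%), against 8.31% of all genes on V, a share that lies below the interval of the peptide genes, which ends at 44.9, and the nlp-24 to nlp-34 set makes up 5 of these 6. The joint intervals of all 6 chromosomes held the share of all genes. Over 48 shares, from 6 chromosomes and 8 ways of counting, 3 did not: V with the 5000 strongest peaks, V with the 10000 strongest (29.2%, 14.9 to 49.2, against 13.8%) and IV in replicate 2 (10.5%, 2.94 to 31.4, against 34.4%).

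Peptide genes had fewer annotated 5′ ends, and so shorter windows, than other genes. The mean was 1.24 ends and 1316 bp of window per peptide gene, against 1.49 ends and 1459 bp over all genes. Among genes with a single 5′ end, the joint list reached 44 of 111 peptide genes (39.6%, 31.03 to 48.9). The share of all such genes was 29.2%, which lies below that interval. By family, it lies below the interval of the nlp genes (28 of 58, 35.9 to 60.8). The intervals of the flp genes (8 of 20, 21.9 to 61.3) and ins genes (8 of 33, 12.8 to 41.02) hold it. The nlp-24 to nlp-34 set, with 8 of its 11 genes reached, lies wholly among these nlp genes. The share without that set was not tested. In the middle 50% of the autosomes the joint list reached 22 of 59 peptide genes (37.3%, 26.1 to 50.05), against 38.6%. On the arms it reached 17 of 48 (35.4%, 23.4 to 49.6), against 27.7%. The median distance to the nearest thresholded summit was 33973 bp for peptide genes and 29542 bp for all genes, and it was 70418 bp for the ins genes.

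GACGCA, a word that stood out at SOMI-1 summits in earlier work on these data, was found on either strand within 50 bp of 2 of the 64 peptide gene summits (3.13%). It was found at 5.78% of all joint window summits and at 15.4% of the thresholded ones. GAGAGA stood at 5 of 64 (7.81%), against 12.8% and 25.2%, and CACGTG at 0 of 64, against 3.14% and 7.59%. GATAAG, added after the sequences had been seen, stood at 6 of 64 (9.38%), against 5.18% and 4.13%. In the 300 bp from 250 bp before to 50 bp after the 5′ end, GACGCA was present in 8 of 141 peptide genes (5.67%), against 8.78% of all genes. There GAGAGA was present in 28 (19.9%), against 21.8%, CACGTG in 4 (2.84%), against 5.82%, and GATAAG in 16 (11.3%), against 16.7%. The median G and C content around the summits was 39.1% at peptide genes and 39.6% over all genes.

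Genes that act with the peptides were read in 4 lists, to be set beside the 4.34% of all genes reached by thresholded peaks and the 35.0% reached by the joint list. The receptor list was taken by gene symbol, with egl-6 added, and the other lists by known function. Of 22 genes for peptide processing and dense core vesicles, thresholded peaks reached 2 (9.09%, 2.53 to 27.8) and the joint list 13 (59.1%, 38.7 to 76.7). The thresholded peaks stood at unc-108, which encodes the vesicle GTPase RAB-2 (signal 183, 489 bp upstream), and at egl-21, which encodes the carboxypeptidase that trims peptides (119.7, 38 bp downstream). The next were the proprotein convertase genes aex-5 (73.7, 7 bp upstream) and kpc-1 (57.6, 117 bp downstream) and the vesicle gene hid-1 (55.5, 144 bp upstream). The main neuronal convertase, egl-3, had a joint signal of 40.9 at 5 bp upstream. Both replicates reached 9 of the 22 (40.9%, 23.3 to 61.3), against 22.8% of all genes. In this count and in the joint list the share of all genes lies below the interval. The lists were chosen with earlier results of these data known.

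Of 107 neuropeptide receptor genes, thresholded peaks reached 1 (0.935%, 0.165 to 5.10), npr-23, with a signal of 149.7 at 196 bp upstream. The joint list reached 30 (28.0%, 20.4 to 37.2). Both replicates reached 13 (12.1%, 7.24 to 19.7), against 22.8% of all genes, which lies above that interval. The receptor genes next in signal were npr-9 (52.3), nmur-1 (49.3) and frpr-19 (46.5).

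Of 13 insulin signalling genes, thresholded peaks reached 2 (15.4%, 4.33 to 42.2) and the joint list 8 (61.5%, 35.5 to 82.3). The 35.0% of all genes lies just below the joint interval. Both replicates reached 5 (38.5%, 17.7 to 64.5), an interval that holds the 22.8% of all genes. The thresholded summits were those of daf-16, the FOXO factor, with a signal of 293 at rank 85, 381 bp upstream of one of its 5′ ends, and of the kinase gene akt-2 (149, 664 bp upstream). The replicates' signals at daf-16 were 131 and 160.5, and it stood higher in the joint list than any window summit of a peptide gene. The kinase gene akt-1 (58.3), the receptor gene daf-2 (52.2) and ist-1 (51.7), for an insulin receptor substrate-like protein, came next. Of 11 other secreted peptide and growth factor genes, thresholded peaks reached 1, the TGF-beta gene tig-2 (141, 116 bp upstream), and the joint list 3 (27.3%, 9.75 to 56.6), with the TGF-beta gene dbl-1 at 59.9 and trh-1 at 30.6.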

How the data were processed

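The data are 4 lists of peaks (narrowPeak, ce11) and the labels give 1 group of animals with 2 biological replicates. The authors called peaks for each replicate alone and for both together against 1 shared control alignment, and an IDR procedure then gave the thresholded list, per the headers of the text files deposited beside them. The sources used here do not give aligner, peak caller or versions, and read depth was not analysed here. The signal value and the −log10 q-value of each peak were deposited by the authors. The q-value was not used, and the p-value column was unset. The labels name somi-1 under antibody and describe a precipitation with anti-GFP.

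Summits were placed at the deposited offset from the peak start and are given 1-based. Genes came from Ensembl release 115 of WBcel235, the assembly that ce11 names, and sequences from RefSeq. Because trans-splicing is common in this species, an annotated 5′ end can differ from the start of transcription. Counts and Wilson 95% intervals were computed with Python 3.11.15, pandas 2.3.3, numpy 2.4.6 and scipy 1.17.1. The assignment was tested on 200 simulated summits. No significance test was run, since 1 group with 2 replicates gives no comparison between conditions.

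Named are the peptide genes with thresholded summits in or near the window, the 15 with the highest joint signal, the 5 just under the threshold, those near non-coding genes and a list of well-studied genes. The peptide genes, gene lists and words were chosen with earlier results of these data known, and GATAAG and the set nlp-24 to nlp-34 after their values were seen. Alternatives were other windows, 5′ end rules, overlap rules and peak cut-offs, and leaving out a replicate.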

Additional observations from a re-analysis of the deposited data

How the results depend on the processing

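Under 38 alternative counts in all, 27 stayed within 1.5 times the reported count and 11 did not. When the window was cut to 500 bp before and 100 bp after the 5′ end, the joint list reached 32 peptide genes in place of 54 (22.7%, against 23.5% of all genes), with 7 of 31 flp genes (22.6%) in place of 14 and 5 of 39 ins genes (12.8%) in place of 10. Both replicates then reached 11 in place of 23 (7.80%, against 13.4% of all genes). When it was widened to 2000 bp before and 500 bp after, both replicates reached 52 (36.9%, against 38.1%), and the joint list 46 nlp genes in place of 30 (64.8%) and 18 ins genes (46.2%), against 51.2% of all genes. When any base of a peak could lie in the window, both replicates reached 36 (25.5%, against 28.2%), and with the 10000 strongest peaks of each replicate 10 (7.09%, against 10.1%). Joint summits inside peaks of both replicates reached 21 (14.9%, against 18.9%). The 5000 strongest joint peaks reached 11 peptide genes (7.80%, against 10.6%) in place of the 3 of the thresholded list. Left out in turn, the replicates gave 3 to 4 genes at the thresholded number of peaks, with ins-39, nlp-24 and nlp-76 in both and nlp-45 added without replicate 2, and 42 to 49 in place of the joint 54. The short window dropped ins-39 from the thresholded genes, the long one added nlp-26, and raising the threshold to keep the stronger 50% of the peaks dropped nlp-76. No paired analysis was possible because there is 1 group and no test. Read depth was not used, so the depth behind a missing summit is unknown.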
